A study of Mus musculus with 8 samples.

Results

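The cytochrome P450 enzymes of families 1 to 3 were read in the livers of 8 mice through every probe set annotated to exactly 1 symbol that begins with Cyp1, Cyp2 or Cyp3 and continues with a letter. This gave 54 genes of the 19938 measured, each with a single such probe set, in 17 subfamilies. The largest are Cyp2c with 13 genes, Cyp2d with 10, Cyp2j and Cyp3a with 6 each and Cyp2b with 5. A pair of the Cyp2d entries, Cyp2d13 and Cyp2d37-ps, are transcribed pseudogenes in the RefSeq annotation. A further 5 probe sets carry several P450 symbols at once, which leaves Cyp2a4, Cyp2a5, Cyp2c40, Cyp2c69, Cyp3a41a, Cyp3a41b and Cyp3a59 without a probe set of their own.

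The transgenic group comprised 4 mice with constitutively active IKK2 under the LAP promoter, which is active in hepatocytes, and the control group 4 wild type mice. All were 4 weeks old and of a mixed C57BL/6 and NMRI background, backcrossed to C57BL/6 at least 4 times. Each liver has its own Affymetrix array with 1 log2 expression value per probe set. Per the labels these are biological replicates. The labels do not give the sex of the animals, and Xist, a transcript of females, read 2.95 to 3.39 in all 8 arrays. These readings lie below the median of every array (4.88 to 5.08).

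P450 enzymes of these families are haem proteins of the hepatocyte's endoplasmic reticulum that oxidise drugs, toxins, steroids and fatty acids, with electrons passed on by the reductase Por and by cytochrome b5. Their genes lie in clusters of close relatives and are switched on by nuclear receptors such as PXR (Nr1i2) and CAR (Nr1i3), by the dioxin receptor AHR and by hepatocyte factors such as HNF4A. Lower hepatic P450 activity during inflammation has long been known. The comparison asks which of these transcripts differ when IKK2, an activator of NF-kB, is constitutively active in hepatocytes.

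Most members read lower in the transgenic livers, but few passed the test. Of the 54 genes, 45 had a log2 fold change (transgenic minus control) below 0, where 61.6% of all genes did. The median was -0.31 over the members and -0.07 over all genes. Cyp2c67 and Cyp2c23 fell, Cyp1b1 rose, and the other 51 members were not called by limma at an adjusted p under 0.05. This threshold called 1.67% of all genes lower and 4.67% higher. At an unadjusted p under 0.05, 22 members were lower and 1 was higher, against 18.3% and 15.3% of all genes. In 12 members every transgenic array read below every control array, a pattern shown by 11.2% of all genes. Another 11.2% showed the reverse, among the members Cyp1b1 alone. Fold changes of at least 2-fold downward were found for 11 members, all of the Cyp2 family, and for 0.426% of all genes.

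The promoters of 3 members are shown, one for each outcome of the test: Cyp2c67 fell, Cyp1b1 rose, and Cyp3a11, the principal Cyp3a enzyme of adult mouse liver, was not called. The 250 bases upstream of each start are from RefSeq (GRCm38.p6), on the strand of the gene, which is the minus strand in all 3. Capitals mark matches to any of 4 motifs searched on both strands: the AHR core GCGTG, the HNF4A-type CAAAGTCCA, the C/EBP-type TTGCNNAA and the NF-kB consensus.
Cyp2c67, chr19:39649043-39649292: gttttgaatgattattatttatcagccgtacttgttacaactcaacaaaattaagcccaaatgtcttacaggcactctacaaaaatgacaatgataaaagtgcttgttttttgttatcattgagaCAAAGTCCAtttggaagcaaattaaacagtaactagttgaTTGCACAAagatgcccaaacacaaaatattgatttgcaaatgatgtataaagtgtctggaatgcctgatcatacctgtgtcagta
Cyp1b1, chr17:79715062-79715311: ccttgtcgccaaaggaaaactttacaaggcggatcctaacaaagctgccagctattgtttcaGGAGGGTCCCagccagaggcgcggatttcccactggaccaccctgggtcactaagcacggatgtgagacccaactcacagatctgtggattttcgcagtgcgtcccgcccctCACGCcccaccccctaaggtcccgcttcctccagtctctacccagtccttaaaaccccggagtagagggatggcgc
Cyp3a11, chr5:145879855-145880104: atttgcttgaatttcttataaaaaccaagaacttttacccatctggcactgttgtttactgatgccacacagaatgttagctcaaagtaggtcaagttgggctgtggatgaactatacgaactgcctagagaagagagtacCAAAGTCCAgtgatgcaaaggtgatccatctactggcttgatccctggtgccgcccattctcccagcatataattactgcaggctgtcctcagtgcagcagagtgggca

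The HNF4A-type letters stand in the windows of Cyp2c67 and Cyp3a11 alike, although the first was called lower and the second was not. Among the 45 members with a promoter in the RefSeq table, 6 held this motif (Cyp2c65, Cyp2c67, Cyp2c68, Cyp2c70, Cyp3a11 and Cyp3a16), against 0.417% of the 19177 promoters of measured genes. The Cyp2c genes among these lie in a single row of neighbours on chromosome 19, and Cyp3a11 and Cyp3a16 in one on chromosome 5. The C/EBP-type motif stood in 9 of the 45, among them all 5 Cyp2b genes, against 8.66% of promoters. Close relatives may share promoter letters, so matches within a subfamily are not independent of one another. In Cyp1b1 the capitals mark the NF-kB consensus, 188 to 179 bases upstream, and the AHR core, 76 to 72 bases upstream. Both lie on the opposite strand. The NF-kB consensus stood in 2 of the 45, Cyp1b1 and Cyp2j6, against 5.68% of promoters, and the AHR core in 9 against 35.9%. No matches share a base in these 3 windows. A match describes the sequence and is not a measured site, and the 9 members without a promoter entry, Cyp2c23 and Cyp2c54 among them, were not searched.

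**Figure D1:**
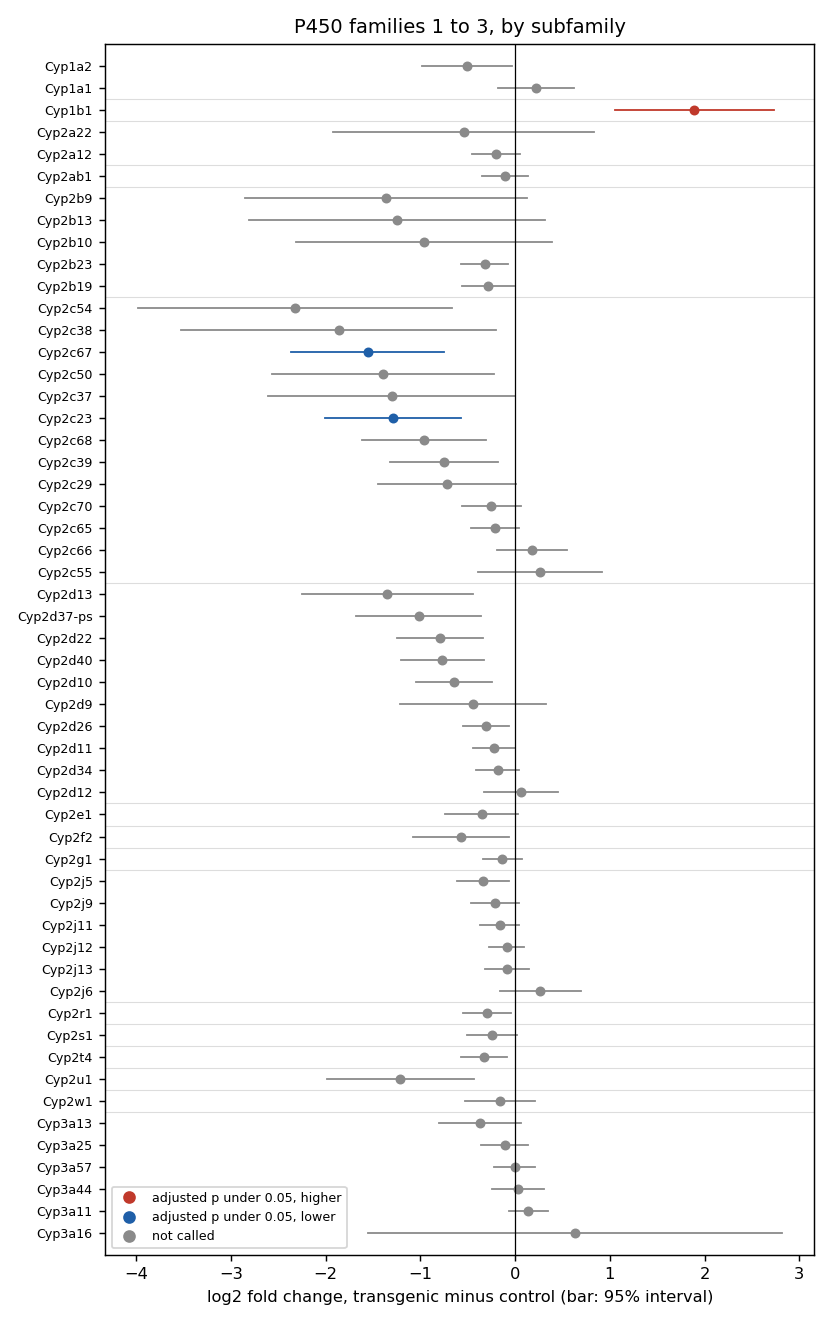
Log2 fold change (transgenic minus control, 4 arrays each) of the 54 members on the horizontal axis, ordered by subfamily on the vertical axis, with bars for the unadjusted 95% interval. Cyp2c67 and Cyp2c23 (blue) fell and Cyp1b1 (red) rose, while the Cyp3a genes lie around 0 and most Cyp2b, Cyp2c and Cyp2d genes lie to the left of it.

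The Cyp2c subfamily, whose enzymes oxidise drugs and turn arachidonic acid into epoxides, held both genes that fell. Cyp2c67 (probe set 10467380) read 9.001, 8.51, 10.05 and 10.35 in the transgenic livers (replicates 1 to 4, an order kept throughout) and 11.17, 10.69, 10.96 and 11.31 in the control livers. All 4 transgenic arrays lay below all controls. Its log2 fold change was -1.56 (a 2.94-fold fall, SE 0.36, limma adjusted p = 0.0403). Cyp2c23 (probe set 10467897), an arachidonic acid epoxygenase, read 10.14, 9.12, 10.12 and 10.86 in the transgenic and 11.67, 11.10, 10.98 and 11.65 in the control arrays. The groups did not overlap either, although transgenic replicate 4 came close to the lowest control. Its log2 fold change was -1.29 (a 2.44-fold fall, SE 0.32, limma adjusted p = 0.0475). Both calls lie close to the threshold. They were lost with each array centred on its median (adjusted p = 0.0531 for Cyp2c67 and 0.0655 for Cyp2c23), when transgenic replicate 1 was dropped (0.119 and 0.120) and when any single control was (0.0846 to 0.102 and 0.0911 to 0.106). The call of Cyp2c23 was also lost on dropping transgenic replicate 3 (0.0538) and with trend and robust moderation (0.0523).

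The lowest fold change of all members belonged to Cyp2c54, an epoxygenase of linoleic and arachidonic acid, but its arrays were too spread for a call. It read 7.65, 6.36, 9.48 and 10.54 in the transgenic and 10.99, 10.61, 10.60 and 11.14 in the control arrays. All transgenic arrays lay below all controls, the highest by under 0.1 and the lowest by more than 4 on the log2 scale. The log2 fold change was -2.33 (SE 0.74, 95% interval -3.98 to -0.67, limma adjusted p = 0.0773). Cyp2c50 and Cyp2c37, its neighbours on the chromosome and also epoxygenases, stood at -1.39 and -1.30 (adjusted p = 0.107 and 0.151). Cyp2c37 read 7.98 and 8.09 in transgenic replicates 1 and 2, but 10.75 and 10.40 in replicates 3 and 4, which lie in or next to the control range of 10.41 to 10.76.

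Cyp2c68 stood at -0.96 (adjusted p = 0.0708) with no overlap between the groups. Cyp2c39, an enzyme that hydroxylates retinoic acid, and Cyp2c29, a drug and fatty acid oxidase induced through CAR, stood at -0.75 and -0.72. Cyp2c70, the enzyme behind the muricholic bile acids of mice, differed by little. It read 12.37, 11.88, 12.42 and 12.53 in the transgenic arrays and 12.42 to 12.67 in the controls, and its log2 fold change of -0.25 has a 95% interval of -0.56 to 0.06. Cyp2c55, known from the intestine and inducible in liver, and Cyp2c66 stood at 0.26 and 0.18 and are the only members of the subfamily above 0. Cyp2c65 and Cyp2c66 read below every array median on all 8 arrays, so little can be read from them.

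Along chromosome 19 the RefSeq annotation places 14 Cyp2c genes next to each other, of which 12 have a probe set of their own. Cyp2c55, Cyp2c65 and Cyp2c66 at one end gave 0.26, -0.21 and 0.18. The next 8 measured genes, Cyp2c29 to Cyp2c50, all stood at -0.72 or lower, and Cyp2c70 at the other end stood at -0.25. Cyp2c23, the other gene that fell, lies apart from this row. Close relatives may share probes: the probe set that names Cyp2c69, Cyp2c67, Cyp2c68 and Cyp2c40 together stood at -1.29 (SE 0.41), with 10.61, 9.92, 11.77 and 12.03 in the transgenic arrays and 12.17 to 12.53 in the controls. How far the probe set of Cyp2c67 reads its neighbours too was not tested.

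**Figure D2:**
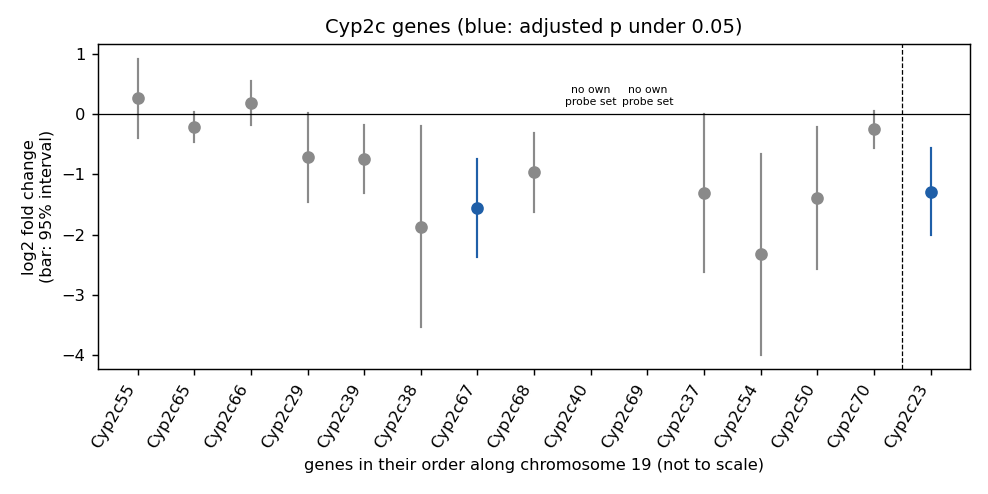
Log2 fold change of the Cyp2c genes (points, with 95% intervals) in their order along chromosome 19, not to scale, with the separate Cyp2c23 to the right of the dashed line. The 8 measured genes from Cyp2c29 to Cyp2c50 all lie at -0.72 or lower, between neighbours nearer 0 on both sides.

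Members of the Cyp2d subfamily, relatives of the human debrisoquine hydroxylase, read lower by smaller amounts and with less spread. Of 10 genes, 0 were called by limma, 9 stood below 0, 7 had an unadjusted p under 0.05 and 6 did not overlap between the groups (11.2% of all genes did so in this direction). Cyp2d40 read 7.10, 6.68, 7.53 and 7.68 in the transgenic and 8.13, 8.05, 7.82 and 8.05 in the control arrays, which is a difference of -0.77 (SE 0.20, adjusted p = 0.0507). Cyp2d22 read 9.52, 8.78, 9.70 and 9.86 against 10.30, 10.06, 10.34 and 10.34, which is a difference of -0.79 (SE 0.21, adjusted p = 0.0518). All transgenic arrays lay below the controls for both, and the adjusted p missed the threshold by a small margin. Both were called lower with the dimmest 30% or 50% of probe sets removed, with array weights and with trend and robust moderation. Over all settings Cyp2d22 was called in 8 of 17 and Cyp2d40 in 9 of 17. Their adjusted p rose to 0.0679 and 0.0656 with median centring, and lay between 0.0901 and 0.139 without transgenic replicate 1 or any single control.

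The lowest value of the subfamily was that of the pseudogene Cyp2d13, at -1.35 (95% interval -2.25 to -0.45, adjusted p = 0.0680). The pseudogene Cyp2d37-ps stood at -1.02 and Cyp2d10 at -0.64. Cyp2d26, the member with the highest control mean of the subfamily, stood at -0.31 with no overlap. Cyp2d9, a testosterone hydroxylase of male liver, varied as much among the controls, at 10.19, 9.63, 8.60 and 10.31, as between the groups (transgenic 9.30, 9.13, 8.81 and 9.71). Cyp2d11, Cyp2d12 and Cyp2d34 read below every array median on all 8 arrays and stood between -0.22 and 0.06.

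The Cyp2b genes, known for steroid oxidation and, in Cyp2b10, for strong induction through CAR, separated the transgenic arrays from one another rather than the groups. Cyp2b9 read 7.32 and 8.36 in transgenic replicates 1 and 2, against 10.62 and 10.40 in replicates 3 and 4 and 9.87, 10.84, 11.11 and 10.33 in the controls. Cyp2b10 read 4.84, 6.15, 7.30 and 7.33 in the transgenic and 6.53, 8.48, 7.89 and 6.58 in the control arrays. Replicates 1 and 2 lay below all controls for both genes, whereas replicates 3 and 4 lay within the control range. The log2 fold changes were -1.36 for Cyp2b9 (95% interval -2.86 to 0.13, adjusted p = 0.179) and -0.96 for Cyp2b10 (-2.31 to 0.38, adjusted p = 0.271). Cyp2b13, like Cyp2b9 an enzyme higher in female than in male mouse liver, stood at -1.25 (-2.81 to 0.31). Cyp2b19, an enzyme of skin, and Cyp2b23 read below every array median on all 8 arrays.

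The Cyp3a subfamily, which oxidises a wide range of drugs and steroids, had 6 measured genes. Its median log2 fold change was 0.01, with 3 genes below and 3 above 0, and 0 were called by limma, also at an unadjusted p under 0.05. Cyp3a11 read 12.34, 12.30, 12.11 and 12.00 in the transgenic and 12.05, 12.11, 12.03 and 12.00 in the control arrays. Its log2 fold change of 0.14 has a 95% interval of -0.07 to 0.35, so a fall of the size seen for Cyp2c67 lies outside it. These readings are high on an array whose highest value is 14.1, as are those of Cyp2c70 and Cyp2e1. Whether such signals still follow the amount of transcript was not tested. Cyp3a25 stood at -0.11 (-0.36 to 0.14), Cyp3a44 at 0.03 (-0.25 to 0.31) and Cyp3a13, which is also expressed in the intestine, at -0.37 (-0.80 to 0.06). Cyp3a57 read below every array median.

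Cyp3a16, an enzyme of fetal and newborn liver, differed most from animal to animal. It read 4.35, 5.09, 9.42 and 6.05 in the transgenic and 4.42, 5.50, 7.06 and 5.41 in the control arrays, a log2 fold change of 0.63 with a 95% interval of -1.55 to 2.82. Transgenic replicate 3 was highest by a wide margin, and the other arrays of both groups overlapped. Probe sets with several symbols covered close relatives. The one for Cyp3a41a, Cyp3a41b and Cyp3a44 stood at -0.41 (SE 0.24), the one that adds Cyp3a11 to these at -0.47 (SE 0.26), and the one for Cyp3a25, Cyp3a57 and Cyp3a59 at -0.05 (SE 0.11).

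**Figure D3:**
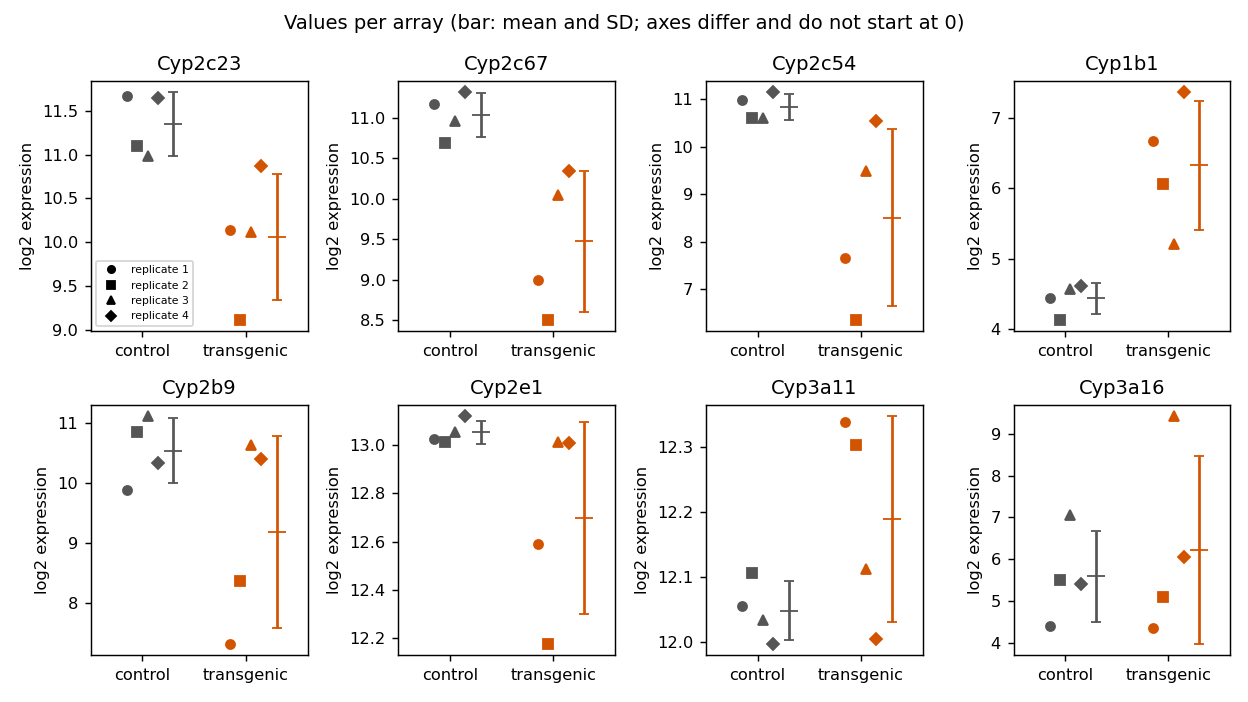
Log2 expression per array of 8 members (vertical axes differ between panels), with the 4 control arrays in grey and the 4 transgenic arrays in orange, marker shapes for the replicate number, and bars for mean and SD. For Cyp2c23 and Cyp2c67 all transgenic arrays lie below all controls and for Cyp1b1 above them, while for Cyp2b9 and Cyp2e1 replicates 1 and 2 stand apart from replicates 3 and 4.

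In the Cyp1 family, whose genes are classical targets of AHR, Cyp1b1 was the only member of all 54 that rose. This enzyme of steroid and retinoid metabolism is known chiefly from tissues other than liver parenchyma. It read 6.67, 6.07, 5.202 and 7.37 in the transgenic and 4.43, 4.13, 4.57 and 4.61 in the control arrays, without overlap. The log2 fold change was 1.89 (3.71-fold, SE 0.38, limma adjusted p = 0.0257). The controls lie under every array median, so the size of the rise is uncertain. Dropping transgenic replicate 1 ended the call (adjusted p = 0.0921), as did dropping control replicate 1, 2, 3 or 4 (0.0755, 0.0881, 0.0728 and 0.0637). Over the settings that kept its probe set the adjusted p ran from 0.00365 to 0.0921.

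The other AHR targets among the members were not called. Cyp1a1, the most inducible of them, read 4.34, 5.22, 4.61 and 4.31 in the transgenic and 4.36 to 4.46 in the control arrays. Its log2 fold change was 0.22 (95% interval -0.18 to 0.62, adjusted p = 0.386). All arrays but transgenic replicate 2 lay under every array median for this gene, so little can be read from it. Cyp1a2, which is constitutive in hepatocytes around the central vein and clears caffeine, read 10.59, 10.16, 11.23 and 11.05 in the transgenic and 11.44, 11.13, 11.11 and 11.40 in the control arrays. It stood at -0.51 (-0.98 to -0.04, adjusted p = 0.130). Ahr itself stood at 0.0027 and its partner Arnt at 0.13, both not called.

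Beside the rise of Cyp1b1, markers of other cell types were higher in the same livers. For scale, limma called 4.67% of all genes higher and 1.67% lower. Of 11 Kupffer cell and macrophage markers 9 rose and of 5 monocyte markers 5 rose, with summed levels of 12.5 to 13.6 and 8.85 to 10.5 in the transgenic arrays, against 11.02 to 11.46 and 7.14 to 7.29 in the controls (log2 of summed linear values). Of 9 stellate cell and fibroblast markers 4 rose, with sums of 12.2 to 12.4 against 11.59 to 11.95. Of 8 T and NK cell markers 2 rose, with sums of 8.22 to 9.25 against 7.64 to 7.77. Of 7 endothelial markers 1 rose, with sums of 11.8 to 12.0 against 11.7 to 11.9. Of 4 B cell and 5 bile duct markers 0 passed limma's test. With 1 array left out, the counts that rose ran from 5 to 10 for Kupffer cells and macrophages, 3 to 5 for monocytes, 1 to 5 for stellate cells and fibroblasts, 1 to 4 for T and NK cells and 0 to 1 for endothelium, lowest without transgenic replicate 1 or a control array. Their part in the Cyp1b1 result was not tested, and in whole liver fewer cells of a type and less RNA per cell cannot be told apart. Of 11 hepatocyte markers 0 were called and the median was -0.17. Their sum was 16.3, 16.2, 16.4 and 16.4 in transgenic replicates 1 to 4 and 16.4 in each control. Their part in the lower P450 readings was not tested.

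The remaining members hold single genes of several subfamilies. Cyp2e1, the oxidase of ethanol and paracetamol in hepatocytes around the central vein, read 12.59, 12.18, 13.01 and 13.01 in the transgenic and 13.02, 13.01, 13.05 and 13.12 in the control arrays. The groups did not overlap, but replicates 3 and 4 lay only just under the lowest control, and the log2 fold change of -0.35 was not called (adjusted p = 0.174). Cyp2f2, an oxidase of naphthalene in periportal hepatocytes, stood at -0.57 (adjusted p = 0.118). Cyp2u1, a fatty acid hydroxylase, stood at -1.21 (SE 0.35, adjusted p = 0.0625), with 6.88, 5.77, 6.62 and 7.49 in the transgenic and 8.49, 7.29, 7.81 and 8.03 in the control arrays.

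Cyp2r1, which hydroxylates vitamin D, stood at -0.30 and Cyp2j5, an epoxygenase of kidney and liver, at -0.34 with no overlap. The other Cyp2j genes stood between -0.21 (Cyp2j9) and 0.26 (Cyp2j6), and Cyp2j11, Cyp2j12 and Cyp2j13 read below every array median. Cyp2a22 stood at -0.54 (95% interval -1.92 to 0.84) and Cyp2a12 at -0.20. The probe set shared by Cyp2a4 and the coumarin hydroxylase Cyp2a5 stood at -0.59 (SE 0.26), with 9.53, 8.42, 9.71 and 9.67 in the transgenic and 9.78 to 9.996 in the control arrays. Cyp2s1 stood at -0.24, Cyp2w1 at -0.16, and Cyp2ab1, Cyp2t4 and the olfactory Cyp2g1 read below every array median with values from -0.33 to -0.11. In all, 14 members read below every array median on all 8 arrays and 8 did so on some.

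The transgenic livers differed from each other more than the controls did. The standard deviation was larger over the transgenic than over the control arrays in 42 of 54 members and in 59.4% of all genes. Its median over the members was 0.40 in the transgenic and 0.17 in the control group, against 0.16 and 0.14 over all genes. Measured from the control mean, the median member stood at -0.40 and -0.54 in transgenic replicates 1 and 2 and at -0.12 and -0.13 in replicates 3 and 4. Over all genes these medians were -0.08, -0.11, -0.03 and -0.04. Below all 4 controls lay 37, 40, 23 and 22 members in replicates 1 to 4, against 41.5%, 46.9%, 25.9% and 27.9% of all genes.

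**Figure D4:**
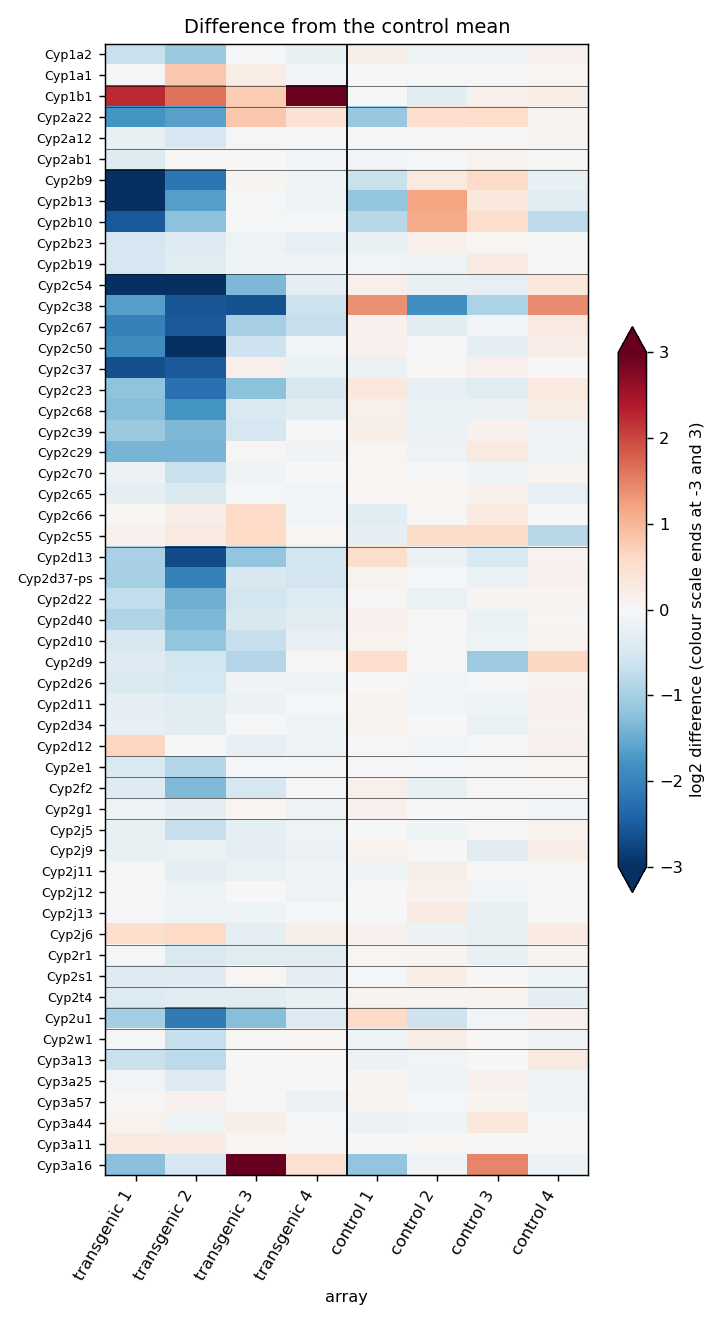
Log2 difference of each array (columns) from the control mean for the 54 members (rows, by subfamily), with red above and blue below it and the colour scale ending at -3 and 3. The median Cyp2b and Cyp2c gene lies lowest in transgenic replicates 1 and 2 and the median Cyp2d gene lowest in replicate 2, while single genes such as Cyp2c38 and Cyp2d9 are lowest in replicate 3.

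**Figure D5:**
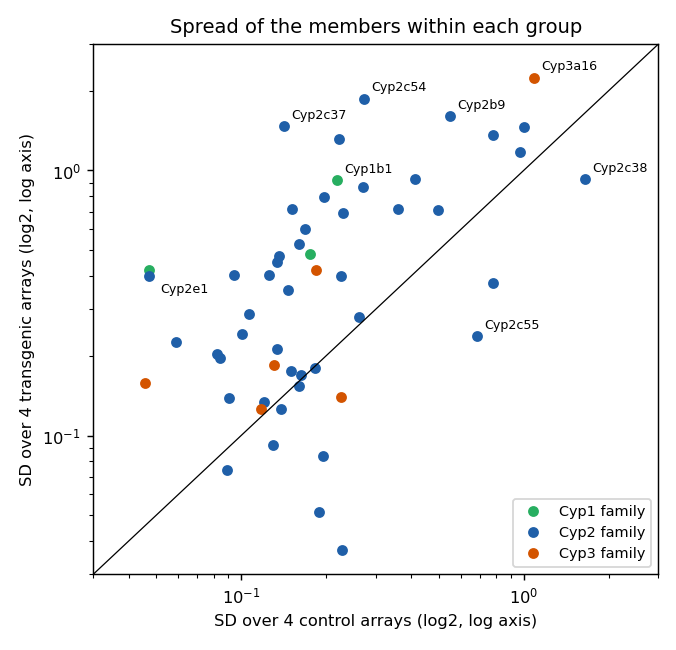
Standard deviation over the 4 transgenic arrays (vertical, log axis) against that over the 4 control arrays (horizontal, log axis) for each member, coloured by family, with a line of equality. Of 54 members, 42 lie above the line, while Cyp2c38 and Cyp2c55 varied more among the controls.

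The same 2 transgenic arrays read highest for the kinase. Ikbkb, the gene of IKK2 and the check of the labels, read 8.995 and 9.09 in them, 8.38 in each of the other two and 7.44 to 7.85 in the controls (log2 fold change 1.00, SE 0.18, limma adjusted p = 0.0185). This gene no longer passed when transgenic replicate 1 was dropped (adjusted p = 0.0688), nor when control replicate 1, 2, 3 or 4 was (0.0546, 0.0691, 0.0565 and 0.0566). No source used here says whether its probe set reads the transgene. Summed monocyte markers were 9.89, 10.5, 8.85 and 9.32 across the transgenic arrays. The estimated array weights were 0.82, 0.28, 1.45 and 1.71, lowest for replicate 2. Array quality and the part of infiltrating cells in this order of the arrays were not tested. The count of members called lower followed the arrays kept. It was 0 without transgenic replicate 1, 6 without replicate 2, 5 without replicate 3 and 13 without replicate 4. The shares of all genes called lower in these fits were 0.0150%, 1.30%, 3.39% and 4.73%. The count was 0 without any single control array, where 0.0502% to 0.176% of all genes were called lower, against 1.67% with all arrays.

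The control livers also differed among themselves in some members. Cyp2c38, an arachidonic acid epoxygenase, read 7.29 and 7.35 in control replicates 1 and 4 but 4.08 and 4.98 in replicates 2 and 3. Its transgenic arrays read 4.27, 3.37, 3.32 and 5.29, giving a log2 fold change of -1.86 with a 95% interval of -3.53 to -0.20 (adjusted p = 0.120). Transgenic replicates 1, 2 and 3 and control replicate 2 lie under every array median, so the size of this difference is uncertain. Cyp2d9 was likewise highest in control replicates 1 and 4. Cyp2b9, Cyp2b10, Cyp2b13, Cyp2c55 and Cyp3a16 were higher in control replicates 2 and 3 than in 1 and 4. Of these, Cyp2b9, Cyp2b10, Cyp2b13 and Cyp3a16 are known as higher in female and Cyp2d9 as higher in male mouse liver. Other members, not counted here as higher in either sex, showed these orders too. Cyp2a22, Cyp2b23, Cyp2c37, Cyp2c66, Cyp2s1 and Cyp2w1 were also higher in control replicates 2 and 3 than in 1 and 4. Cyp1a2, Cyp2c23, Cyp2c50, Cyp2c54, Cyp2c67, Cyp2c68 and Cyp2d10, among others, were highest in control replicates 1 and 4. Cyp3a44, the fifth measured member known as higher in females, did not share the order of Cyp2b9, with 8.50, 8.55, 8.999 and 8.65 in the controls. Nor did the probe set shared by Cyp3a41a, Cyp3a41b and Cyp3a44, at 10.95, 10.47, 11.52 and 11.20. Cyp2a4, Cyp2c40 and Cyp2c69 are also known as higher in females and have only shared probe sets. The one with Cyp2a4 read 9.95, 9.996, 9.95 and 9.78 in the controls. The one with Cyp2c40 and Cyp2c69 read 12.43, 12.17, 12.37 and 12.53, highest in control replicates 1 and 4. Xist did not set control replicates 2 and 3 apart either, with 3.37, 3.39, 3.28 and 3.21 in control replicates 1 to 4. It read below every array median on all 8 arrays. Whether sex has a part in these orders was not tested. Of the 5 measured members known as higher in females, 0 were called and 3 stood below 0.

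Genes of haem metabolism and electron transfer were read from a list of which 15 members were analysed here. Of these 2 rose and 1 fell, against 4.67% and 1.67% of all genes. Alas1, the rate-limiting enzyme of haem synthesis, read 11.59, 11.75, 10.85 and 10.64 in the transgenic and 9.41, 9.68, 10.76 and 8.81 in the control arrays. It rose by 1.55 (SE 0.39, limma adjusted p = 0.0487), although control replicate 3 read above transgenic replicate 4. Hmox1, which breaks haem down, read 9.05, 9.49, 8.42 and 8.04 against 7.17 to 7.54 in the controls and rose by 1.36 (SE 0.27, adjusted p = 0.0258). Cpox, a late enzyme of haem synthesis, read 8.29, 8.35, 9.20 and 8.99 against 9.59 to 9.69 and fell by 0.93 (SE 0.19, adjusted p = 0.0296). The electron transfer genes Cyb5r3, Cyb5b and Cyb5a stood at -0.51, -0.51 and -0.32 and were not called. The Alas1 call was lost in 8 of 16 alternatives, among them median centring (adjusted p = 0.0561) and leaving out transgenic replicate 1 or 2 (0.136 and 0.0724) or control replicate 1, 2 or 4 (0.0889 to 0.120). Hmox1 and Cpox lost theirs without transgenic replicate 1 (0.0921 and 0.0858) and without any single control (0.0676 to 0.0841 and 0.0709 to 0.0859).

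Of 26 measured regulators of P450 transcription 3 fell and 0 rose, against 1.67% and 4.67% of all genes. Their median was -0.20, against -0.07 over all genes. Nr0b2, a nuclear receptor that represses others, fell by 0.91 (SE 0.21, limma adjusted p = 0.0403). The growth hormone receptor Ghr, whose signal sets the sex pattern of liver P450 genes, fell by 0.75 (SE 0.18, adjusted p = 0.0465), and the hepatocyte factor Foxa1 by 0.42 (SE 0.10, adjusted p = 0.0440). With each array centred on its median these 3 calls were lost (0.0679, 0.0636 and 0.0618). The same happened without transgenic replicate 1 (0.110, 0.117 and 0.111) and without any single control (0.0607 to 0.114 over the 3 genes). The receptor CAR was not called. Nr1i3, its gene, read 7.17, 6.49, 7.96 and 8.20 in the transgenic and 8.54, 8.72, 8.30 and 8.78 in the control arrays, which is a difference of -1.13 (SE 0.32, adjusted p = 0.0624). Nr1i2, the gene of PXR, stood at -0.46 (adjusted p = 0.0540). Neither gene's groups overlapped. Nfe2l2, the gene of the oxidative stress factor NRF2, stood as close to the threshold in the higher direction, at 0.95 (SE 0.25, adjusted p = 0.0538), with every transgenic array above every control. Hnf4a stood at 0.09 and Cebpa at -0.50, both not called. The 7 measured members known as targets of CAR and PXR had a median of -0.72, with 0 called, and ranged from -1.86 (Cyp2c38) to 0.26 (Cyp2c55).

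Position in the liver lobule was read from genes other than P450s. Of 10 measured pericentral genes 1 rose, against 4.67% of all genes. This was the ammonia channel Rhbg, by 0.64 (SE 0.14, limma adjusted p = 0.0344). The median was -0.08, with 6 genes below 0 and 4 above. Rgn stood lowest at -1.10 (adjusted p = 0.121) and Glul stood at -0.45 (adjusted p = 0.0799). Both were not called, although their transgenic arrays all lay below the controls. Of 8 measured periportal genes 1 fell, against 1.67% of all genes. This was the histidine ammonia lyase Hal, by 1.05 (SE 0.24, adjusted p = 0.0403). The median was -0.24, with 5 genes below 0 and 3 above. Cdh1 stood highest at 0.69 and was not called (adjusted p = 0.0686). Among the members, the pericentral Cyp2e1 and Cyp1a2 stood at -0.35 and -0.51 and the periportal Cyp2f2 at -0.57, with none of them called. The calls of Rhbg and Hal were lost without transgenic replicate 1 (0.109 and 0.119). That of Hal was also lost without any single control (0.0833 to 0.107) and with median centring (0.0540). That of Rhbg was also lost without control replicate 1, 2 or 4 (0.0789 to 0.0998) and with quantile normalization (0.0641).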

How the data were processed

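Liver RNA of 4 transgenic and 4 control mice was measured on 8 Affymetrix arrays. Per the submitters' processing notes, the authors used Affymetrix Expression Console, which gave the log2 values deposited for each probe set. The sources used here give neither its version nor its settings or normalization. Detection p-values and scanner files were not used, so no background was available. Array medians lay between 4.88 and 5.08, and the values were used without further normalization. Upper quartiles lay between 6.76 and 7.06. Transgenic replicates 1 and 2 had the lowest medians (4.92 and 4.88) and the highest upper quartiles (6.98 and 7.06). Of 35556 probe sets, the platform annotation ties 21789 to a single symbol, 1621 to several and 12146 to none. The number of arrays limits the precision.

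Limma 3.58.1 (R 4.3.3; files read by data.table, release 1.17.8) fitted group as the only term to the 21789 probe sets with empirical Bayes moderation (two-sided, Benjamini-Hochberg over all of them, threshold 0.05). Each of 19938 genes was read through its brightest probe set. The 95% intervals use the moderated standard error and are not adjusted. On simulated data with 19938 genes, 50 genes per fold size were changed, of which 50 were found for a log2 change of 2, 49 for -2, 42 for 1 and 48 for -1. There were 12 false calls. The simulated noise was independent between arrays and had the same standard deviation in both groups. In the data its median over the members was 0.40 in the transgenic and 0.17 in the control group. The shares found need not hold for the members. Probe sets with several symbols were read from a fit to all deposited probe sets.

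Members and lists were chosen with earlier results of these data known. The text names Ikbkb, called members, the member with the largest change and that with the highest control mean of each subfamily, and called genes of the pathway lists. Cell type marker lists are given by counts and sums. Other members are named to account for all 54. Further genes (Ahr, Arnt, Nfe2l2, Nr1i2, Nr1i3, Hnf4a, Cebpa, Cyb5a, Cyb5b, Cyb5r3, Glul, Rgn, Cdh1 and Xist) were chosen for their role or change after their values were seen. Alternatives were 2 scalings, 2 filters, averaged probe sets, 2 variance options, a replicate block and leaving out each array.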

Additional observations from a re-analysis of the deposited data

Results flagged for a closer look

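In 4 of 110 groups of 4 arrays examined, 1 array lay far from the other 3, where chance flags about 1 in 20 groups. Control replicate 2 read 10.06 for Cyp2d22, below the 10.30 to 10.34 of the other controls. Control replicate 3 read 6.98 for Cyp2r1, against 7.26 to 7.28. Control replicate 4 read 3.31 for Cyp2t4, against 3.68 to 3.71, all of them under every array median. Transgenic replicate 2 read 4.40 for Cyp2w1, against 5.04 to 5.16 in the other transgenic arrays.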

How the results depend on the processing

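No member changed direction in a setting where it was called. The median log2 fold change of the members stayed below 0 in all settings, from -0.35 to -0.23 when 1 array was left out, and was -0.20 with array weights and -0.61 without the dimmest 50% of probe sets, which removes 20 members. The count of members called lower, 2 as reported, was 5 after quantile normalization, 0 with median centring, 4 and 6 without the dimmest 30% and 50%, 8 with array weights, and 0 to 13 when 1 array was left out. The count called higher, 1 as reported, was 0 without the dimmest 50%, where Cyp1b1 was not tested, and 0 to 1 when 1 array was left out. Over all genes, 333 lower calls became 638 after quantile normalization, 97 with median centring, 429 of 13982 and 385 of 9924 genes without the dimmest 30% and 50% (3.07% and 3.88%, with 41 and 34 members tested), 501 with array weights and 3 to 944 with 1 array left out. The 932 higher calls became 618 with median centring and 192 to 1636 with 1 array left out. Calls upward made up 73.7% as reported, 62.6% with quantile normalization and 86.4% with median centring. The cause of these shifts was not tested. With the replicate block 5 members and 174 genes were lower. Arrays of the same number did not all deviate together (correlations 0.24, -0.03, 0.26 and -0.13). Such values cannot tell whether the numbers pair the animals. Readings under the array medians limit what 22 members can show.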
